A study of Rattus norvegicus with 12 samples.

Results

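Cells that divide raise a shared set of messenger RNAs for copying DNA and for separating chromosomes, and 38 of these genes are described here across silenced and untreated cultures of rat hippocampus. The members were taken by name, as a list of 29 genes of mitosis and 9 genes of DNA replication, and each was represented by its brightest kept probe whose transcript accession belonged to the symbol. Of the 38 genes, 33 were matched to a probe and tested, among 21250 genes or unnamed targets tested in all. The members not matched here were Anln, Bub1b, Mki67, Top2a and Mcm5.

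The study asked how the transcriptome of hippocampal neurons changes when excitatory synaptic input is silenced for hours. Hippocampal cells of Wistar rat embryos at embryonic day 18 were grown for 14 to 15 days in Neurobasal medium with a neuronal supplement, and all 4 groups shared this source and culture. Treated cultures received 50 µM GYKI-52466, an antagonist of AMPA-type glutamate receptors, together with 10 µM MK-801, an antagonist of NMDA-type receptors, for 9 h or 26 h. Untreated cultures were kept in control conditions for each time, and each of the 4 groups (treated 9 h, untreated 9 h, treated 26 h, untreated 26 h) held 3 independent cultures, each on its own array.

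Levels are log2 probe signals from which the 75th percentile of the same array was subtracted, so that a level can be compared between arrays for 1 gene and not between genes. All 33 probes lay well above background on all 12 arrays, and none was saturated. The arrays were scanned on 2 days that cross the groups: untreated 9 h and treated 26 h arrays on day 1, treated 9 h and untreated 26 h arrays on day 2. The effect at a single time, and the difference between the effects at the 2 times, therefore cannot be told apart from scan day. The average effect over both times, and the difference between times averaged over treatment, hold both days equally on each side. Each of 6 slides held 2 of these arrays, which shared a replicate number and a scan day. Slide and replicate number thus cannot be fully told apart. Markers of neurons (8 of 8 on a list) were well above background on all 12 arrays, and so were 8 of 8 astrocyte markers and 8 of 8 markers of the oligodendrocyte lineage. RNA of several cell types was thus present, and in bulk RNA fewer dividing cells and less of an RNA per cell cannot be told apart.

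As background, neurons are cells that have left the cell cycle and do not divide in culture, whereas glia, their precursors and fibroblasts can. Genes of mitosis are held down in resting cells and early in the cycle by the DREAM complex, which binds the CHR element near their starts, and are switched on late in the cycle by B-MYB and FOXM1, often beside CCAAT boxes bound by NF-Y. Genes of DNA replication are switched on earlier, at the border of G1 and S phase, through E2F sites.

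This division was visible in the letters upstream of the members. RefSeq promoter windows on build GRCr8 (250 bases before to 50 bases after each annotated start) were at hand for 31 of the 38 genes. CHR-type letters (TTTGAA or TTTAAA, on either strand) occurred in 23 of 24 mitosis genes, the exception being Cdca3, in 1 of 7 replication genes (Mcm2), and in 29.6% of all 27457 promoters. E2F-type letters (TTTCCCGC or TTTGGCGC, on either strand) occurred in 0 of 24 mitosis genes, in 5 of 7 replication genes (Mcm3, Mcm5, Mcm6, Mcm7 and Tyms), and in 1.62% of all promoters. CCAAT on either strand occurred in 17 of 24 mitosis genes, in 5 of 7 replication genes and in 39.6% of all promoters. No match of 1 class can lie inside a match of another. A match is only a description of the letters, and its absence says nothing of a factor. No promoter sequence is given for Ccna2, Foxm1, Tpx2, Aurkb, Ube2c, Mcm4 and Rrm2.

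The 150 bases before the start are printed for 5 mitosis genes whose values carry the results below and for 2 replication genes with an E2F-type match. The mitosis genes were read as Ccnb1 from chr2:33655226-33655375 (minus strand), Ccnb2 from chr8:79981659-79981808 (minus strand), Plk1 from chr1:186147508-186147657 (plus strand), Kif11 from chr1:244536717-244536866 (plus strand) and Prc1 from chr1:143659331-143659480 (plus strand). Each sequence runs 5′ to 3′ on the strand of its gene, and capitals mark CHR-type and CCAAT matches, with ATTGG the opposite strand of CCAAT.
Ccnb1: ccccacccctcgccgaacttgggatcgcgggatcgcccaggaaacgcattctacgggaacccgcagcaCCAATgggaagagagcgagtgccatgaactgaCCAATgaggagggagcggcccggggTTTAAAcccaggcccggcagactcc
Ccnb2: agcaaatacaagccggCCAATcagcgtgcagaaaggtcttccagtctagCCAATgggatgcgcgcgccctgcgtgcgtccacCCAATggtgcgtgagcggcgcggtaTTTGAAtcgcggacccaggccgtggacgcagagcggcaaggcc
Plk1: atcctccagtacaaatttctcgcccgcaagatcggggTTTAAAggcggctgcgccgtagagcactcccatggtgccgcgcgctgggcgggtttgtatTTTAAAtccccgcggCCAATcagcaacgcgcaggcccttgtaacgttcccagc
Kif11: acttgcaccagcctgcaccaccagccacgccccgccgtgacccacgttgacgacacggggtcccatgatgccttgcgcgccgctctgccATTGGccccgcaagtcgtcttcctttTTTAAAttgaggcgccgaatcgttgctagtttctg
Prc1: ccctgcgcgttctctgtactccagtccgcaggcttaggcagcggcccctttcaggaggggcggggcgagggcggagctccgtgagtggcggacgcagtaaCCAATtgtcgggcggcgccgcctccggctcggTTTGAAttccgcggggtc
In the next pair, read as Mcm6 from chr13:42404353-42404502 (minus strand) and Tyms from chr9:120776084-120776233 (minus strand), capitals mark E2F-type and CCAAT matches.
Mcm6: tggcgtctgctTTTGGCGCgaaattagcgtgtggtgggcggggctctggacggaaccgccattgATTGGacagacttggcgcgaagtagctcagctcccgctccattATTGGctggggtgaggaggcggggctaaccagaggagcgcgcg
Tyms: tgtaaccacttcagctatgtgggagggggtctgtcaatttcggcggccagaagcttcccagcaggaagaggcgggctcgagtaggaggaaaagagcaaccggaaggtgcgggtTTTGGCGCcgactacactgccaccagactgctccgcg
In Ccnb1, Ccnb2, Kif11 and Prc1 the CHR-type match that lies nearest the start follows a CCAAT match on its upstream side. In Plk1 both printed CHR-type matches lie upstream of the CCAAT match. A further CHR-type match of Plk1, at position 6 past the start and outside the printed letters, lies nearest the start and follows the CCAAT match.

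**Figure D1:**
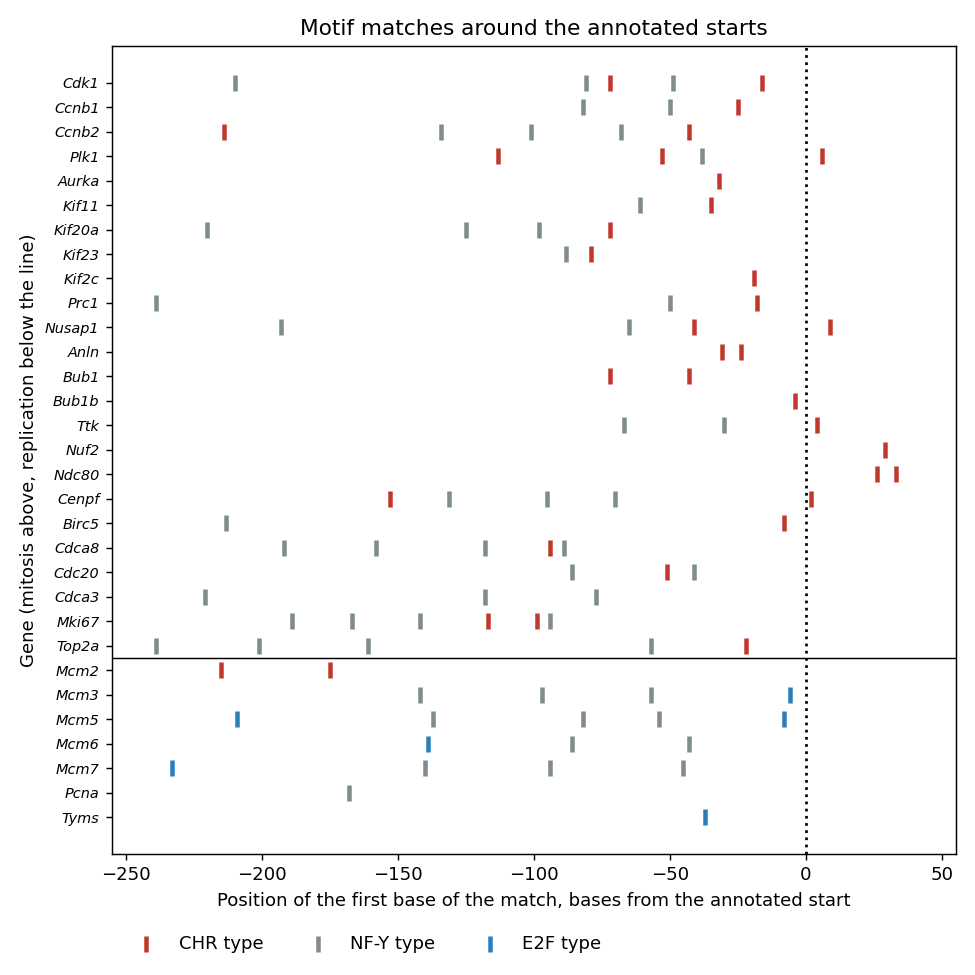
Position of CHR-type (red), NF-Y-type (grey) and E2F-type (blue) matches relative to the annotated start (dotted line) for the 31 genes with a RefSeq promoter, 1 row per gene, with the 24 mitosis genes above the line and the 7 replication genes below it. CHR-type matches fill the upper part, in 23 of 24 genes, and E2F-type matches occur in the lower part alone, in 5 of 7 genes.

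Averaged over both times, mitosis genes lay lower in treated than in untreated cultures, by a modest amount that was seen against a large spread between replicates. The median log2 difference over the 33 members was -0.36, against -0.02 over all targets tested. Of the members 31 of 33 were negative, and of all targets 11800 of 21250 were. The median was -0.22 without treated 9 h replicate 1. Without a block for replicate number, 0 of 33 members passed an adjusted p of 0.05 (limma), and 4.45% of all targets were called in either direction. At an unadjusted p under 0.05 there were 4 of 33 members (12.1%: Bub1, Aurka, Plk1 and Pcna), against 16.5% of all targets. Same-numbered cultures of a time moved together across the array. With the replicate number as a block, fitted as 1 term over all 4 groups, 22 of 33 members fell, where 6.99% of all targets were called lower. This term, called the block below, takes a number as shared between times, where same-numbered arrays correlated as low as -0.0413. A separate fit with a block within each time called 16 of these 22. With the block 0 of 33 rose (limma), where 6.18% of all targets were called higher, and the 2 positive members, Mcm7 and Tyms, had 95% intervals that span 0. At an unadjusted p under 0.05 the block gave 28 members lower (84.8%, against 14.6% of all targets) and 0 higher (against 12.3%). The block left each difference as it was, and the median SE of a member was 0.08 log2 with it and 0.23 without it. The 22 calls became 10 with the matrix that the authors deposited, and 3 members were called with slide as a random block in place of the replicate number (estimated correlation within slides 0.501). With replicate number 1, 2 or 3 left out of every group, 8, 4 and 0 members were called.

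Mitosis and replication members differed in how many fell. With the block, 20 of 25 mitosis members fell (median -0.39), and 2 of 8 replication members, Mcm3 and Rrm2, fell (median -0.18). This contrast between the 2 sets was not itself tested. In each of the 6 same-numbered pairs of treated and untreated cultures the median over mitosis members was negative, from -0.59 to -0.12, whereas that over replication members ran from -0.32 to 0.17. Members that were lower in 6 of 6 pairs numbered 13 of 33 (39.4%), all of them mitosis genes, against 5.58% of all targets. The mitosis members varied together from array to array (mean pairwise correlation 0.91, given below), so these 13 are not separate observations. The plot of average effects gives both intervals for each gene.

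**Figure D2:**
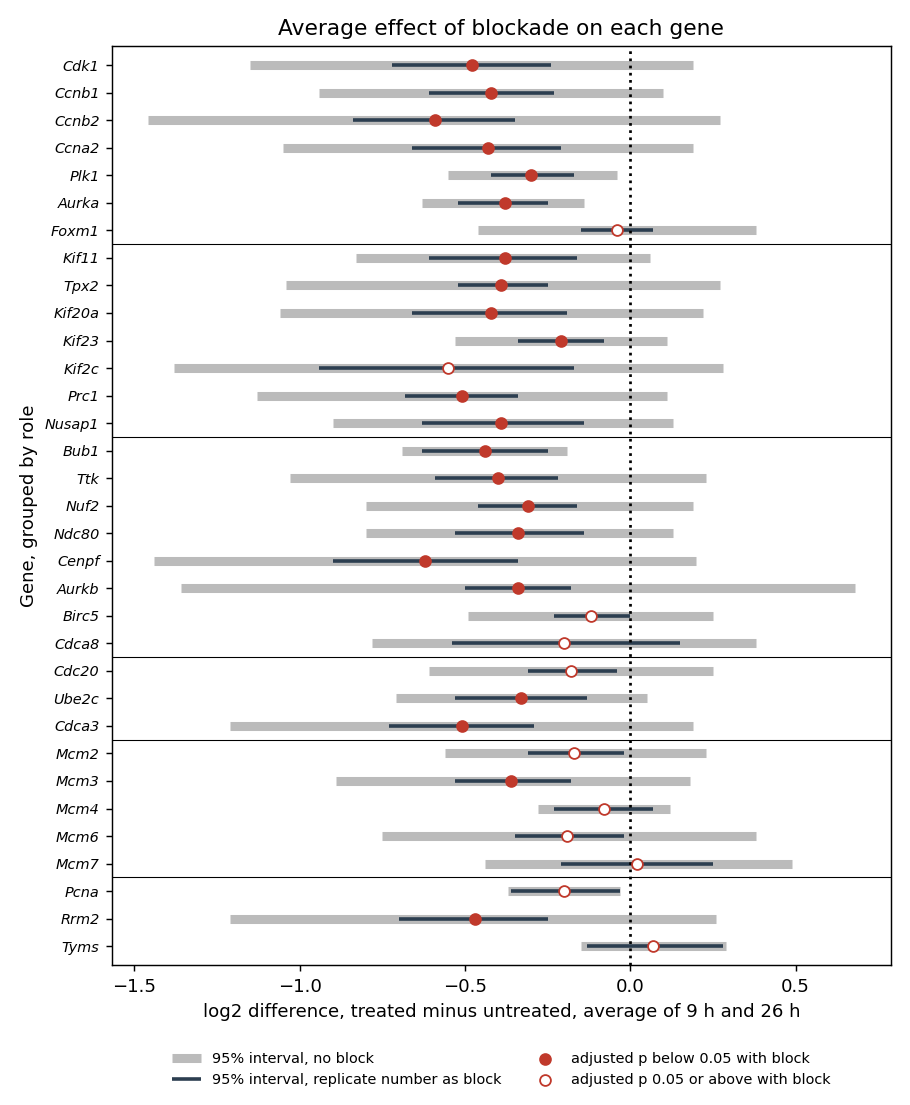
Average log2 difference of 9 h and 26 h, treated minus untreated, for each of 33 genes (points) with 95% intervals without a block (grey) and with the replicate number as a block (dark), filled where the adjusted p with the block is below 0.05. Points lie left of 0 for 31 of 33 genes, and 22 are filled.

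Of the genes of mitotic entry, 6 of 7 fell on average with the block. Ccnb2, a B-type cyclin that activates the mitotic kinase, had levels of -5.42, -3.84 and -3.95 in treated 9 h cultures, against -4.70, -3.52 and -3.40 in untreated 9 h cultures. At 26 h its levels were -5.69, -4.34 and -4.11 in treated cultures, against -4.62, -3.96 and -3.58 in untreated cultures. The groups overlapped at both times, with replicate 1 the lowest in every group, and the treated culture was lower in 6 of 6 same-numbered pairs. Its average difference was -0.59 ± 0.39 log2 (SE, adjusted p = 0.538) without the block and had an SE of 0.11 (adjusted p = 0.00864) with it, a level 1.51 times lower. Ccnb1, the other B-type cyclin, was also lower in 6 of 6 pairs (average -0.42, adjusted p = 0.433 without and 0.0126 with the block). Cdk1, the kinase that drives entry into mitosis, was lower in 6 of 6 pairs as well, with pair differences of -1.04 to -0.05 log2 (average -0.48, adjusted p = 0.517 without and 0.0204 with the block).

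Aurka and Plk1, kinases that mature the centrosomes and build the spindle, had the narrowest intervals of this class without the block. Aurka had levels of -2.07, -1.51 and -1.70 in treated 9 h cultures, against -1.32, -0.96 and -1.02 in untreated 9 h cultures, with no overlap. At 26 h its levels were -1.90, -1.61 and -1.71 in treated cultures, against -1.74, -1.56 and -1.60 in untreated cultures, which overlapped. Its average difference was -0.38 (adjusted p = 0.0898 without and 0.00421 with the block), and that of Plk1 was -0.30 (adjusted p = 0.211 without and 0.00997 with the block). Ccna2, the cyclin of S and G2 phase, averaged -0.43 (adjusted p = 0.533 without and 0.0238 with the block). Foxm1, the transcription factor that drives many of these genes, averaged -0.04 (95% interval with the block -0.15 to 0.07).

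Genes of the spindle and its motors behaved alike, and 6 of 7 fell with the block. Prc1, which bundles the microtubules of the central spindle, had levels of -3.86, -2.80 and -2.80 in treated 9 h cultures, against -3.30, -2.74 and -2.38 in untreated 9 h cultures. At 26 h its levels were -4.30, -3.48 and -3.16 in treated cultures, against -3.49, -2.85 and -2.58 in untreated cultures. The groups overlapped at both times, and the treated culture was lower in 6 of 6 pairs. The average difference of Prc1, -0.51 (adjusted p = 0.424 without the block), had the smallest adjusted p of the 33 members with the block, 0.00301. Tpx2, which nucleates spindle microtubules and activates Aurora A, averaged -0.39 (adjusted p = 0.624 without and 0.00446 with the block). The kinesins of cytokinesis Kif20a and Kif23 averaged -0.42 and -0.21, with adjusted p of 0.0295 and 0.0445 with the block and of 0.56 and 0.572 without it. Nusap1, a spindle microtubule binder, averaged -0.39 (adjusted p = 0.0488 with the block and 0.484 without). Kif2c, a kinesin that takes microtubules apart at centromeres, averaged -0.55 with a wide interval (-0.94 to -0.17 with the block, adjusted p = 0.0688).

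At the kinetochore, 6 of 8 members fell with the block. Cenpf, a large kinetochore protein of G2 and mitosis, had the most negative average of the 33 members, -0.62 (adjusted p = 0.483 without and 0.0135 with the block). Its levels were -6.58, -5.17 and -5.30 in treated 9 h cultures, against -5.87, -5.15 and -4.47 in untreated 9 h cultures. At 26 h they were -6.89, -5.87 and -5.21 in treated cultures, against -5.82, -5.16 and -4.83 in untreated cultures, and the groups overlapped at both times. The checkpoint kinases Bub1 and Ttk averaged -0.44 and -0.40, with adjusted p of 0.0108 and 0.0141 with the block and of 0.0578 and 0.579 without it. Nuf2 and Ndc80, arms of the complex that grips microtubules, averaged -0.31 and -0.34 (adjusted p = 0.0174 and 0.034 with the block, 0.592 and 0.511 without).

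Of the chromosomal passenger complex, which corrects faulty attachments of chromosomes, 1 of 3 members fell with the block. Aurkb, its kinase, had levels of -7.08, -5.71 and -5.04 in treated 9 h cultures, against -6.31, -5.36 and -4.68 in untreated 9 h cultures. At 26 h they were -6.53, -5.40 and -4.77 in treated cultures, against -6.23, -5.26 and -4.65 in untreated cultures. Replicates spanned over 1.5 log2 in every group, while each treated culture was lower than its same-numbered partner (average -0.34, adjusted p = 0.799 without and 0.0164 with the block). Birc5 (survivin), which carries the complex to centromeres, averaged -0.12 (adjusted p = 0.169 with the block). Cdca8 (borealin), another subunit, averaged -0.20 (adjusted p = 0.461 with the block).

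Partners of the anaphase-promoting complex, the ubiquitin ligase that ends mitosis, included 2 of 3 members that fell with the block. Ube2c, its ubiquitin-conjugating enzyme, averaged -0.33 (adjusted p = 0.399 without and 0.0414 with the block). Cdca3, known as a trigger of mitotic entry and lower in 6 of 6 pairs, averaged -0.51 (adjusted p = 0.507 without and 0.0104 with the block). Cdc20, its activator, averaged -0.18 (adjusted p = 0.0856 with the block).

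Replication genes moved less on average. Among the MCM genes, subunits of the helicase that opens DNA, Mcm3 fell with the block (-0.36, adjusted p = 0.0175, and 0.557 without it). The averages of Mcm2, Mcm4, Mcm6 and Mcm7 were -0.17, -0.08, -0.19 and 0.02, with adjusted p of 0.125 to 0.911 with the block. Rrm2, the small subunit of the enzyme that makes deoxynucleotides, fell with the block (-0.47, adjusted p = 0.0165, and 0.575 without it). Pcna, the sliding clamp of the polymerase, averaged -0.20 (95% interval with the block -0.36 to -0.03, adjusted p = 0.128). Tyms, which makes thymidylate, averaged 0.07 (95% interval with the block -0.13 to 0.28).

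**Figure D3:**
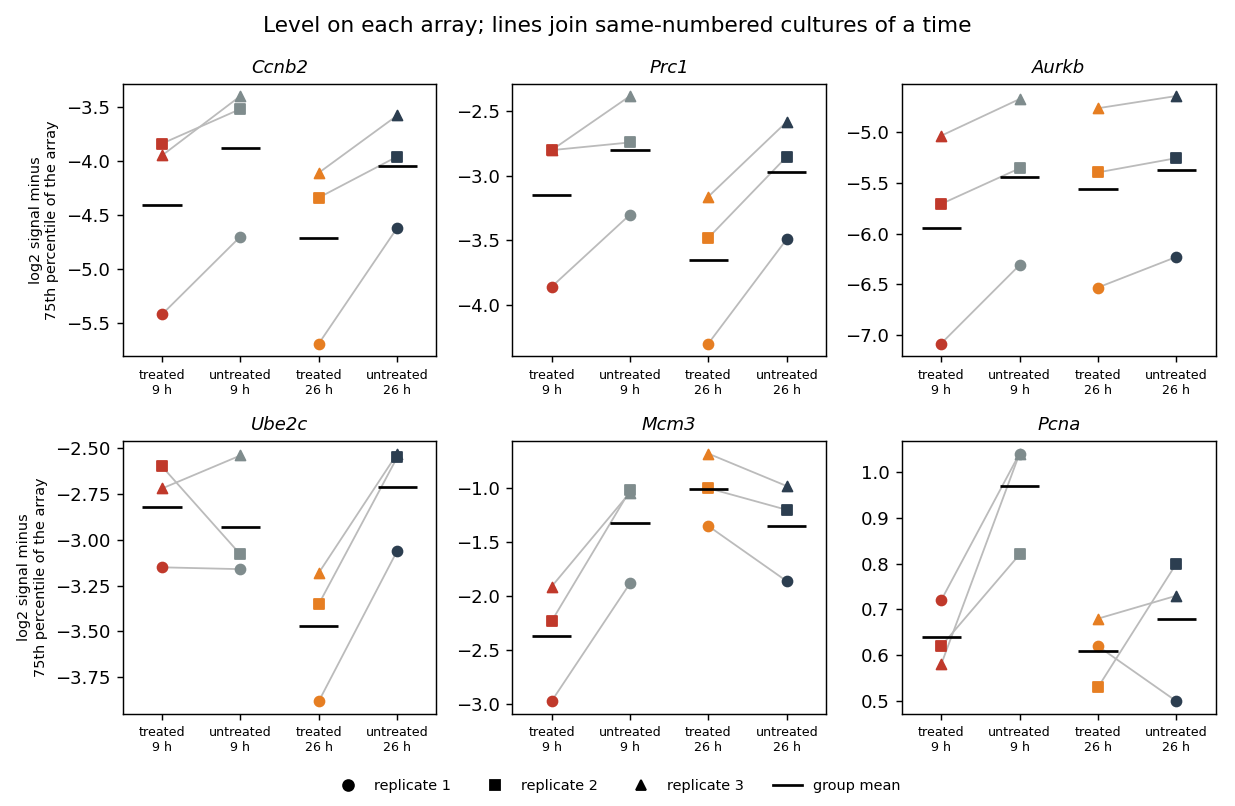
Level on each of 12 arrays, in log2 relative to that array's 75th percentile, for 6 genes, with treated left of untreated at each time, symbols for the replicate number, grey lines joining same-numbered cultures and black bars for group means. In Ccnb2, Prc1 and Aurkb every line rises toward the untreated culture, while in Ube2c the 3 lines at 26 h rise and in Mcm3 the lines at 9 h and 26 h slope in opposite directions.

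At 9 h, 4 of 33 members (12.1%) fell without a block, a share near that of all targets, of which 9.63% were called lower and 11.4% higher. These members were Kif11, Aurka, Bub1 and Plk1, whose 3 treated arrays all lay below their 3 untreated arrays, as they did for 16.2% of all targets. Kif11, the motor that pushes the spindle poles apart, had levels of -5.46, -4.54 and -4.81 in treated 9 h cultures, against -4.22, -3.92 and -3.70 in untreated 9 h cultures. It was 1.99 times lower (-0.99 ± 0.28 log2, SE, adjusted p = 0.0316). Aurka fell by 0.66 log2 (adjusted p = 0.0146), Bub1 fell by 0.61 (adjusted p = 0.0221) and Plk1 fell by 0.55 (adjusted p = 0.035). The count was 1 without replicate 2 or 3 of the untreated 9 h cultures or without replicate 1 of the treated 9 h cultures, and 8 without replicate 1 of the untreated ones.

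With the block, 20 of 33 members fell at 9 h, where 17.4% of all targets were called lower. Mcm2 alone rose (0.33, adjusted p = 0.0202), where 18.4% of all targets were called higher. The median over the members was -0.50, against 0.02 over all targets. It was -0.10 without treated 9 h replicate 1, -0.26 without untreated 9 h replicate 3 and -0.27 with normexp. By role it was -0.50 over mitosis members and -0.21 over replication members, 3 of 8 of which were positive. The single genes with the biggest differences were Rrm2, Mcm3 and Ccna2. Rrm2 was 2.48 times lower (-1.31, adjusted p = 0.0739 without and 5.07e-04 with the block, and -0.27 by a further probe), and Mcm3 was 2.07 times lower (-1.05, adjusted p = 0.0527 without and 4.61e-04 with the block, and -0.24 by a further probe). Ccna2 was 2.01 times lower (-1.01, adjusted p = 0.101 without and 0.00132 with the block, and -0.52 by a further probe). No overlap between treated and untreated arrays at 9 h, with treated below, was found for 7 members (Plk1, Aurka, Kif11, Bub1, Mcm3, Mcm4 and Pcna), a share near the 16.2% of all targets. Of the remaining members called with the block, Birc5, Cdca3, Cdk1, Ndc80, Nuf2, Tpx2, Aurkb, Ttk, Ccnb2, Cenpf, Prc1, Mcm4 and Pcna fell by 0.31 to 0.87 log2.

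At 26 h, 0 of 33 members passed without a block (limma), where 16.3% of all targets were called in either direction. At an unadjusted p under 0.05 there were 2 of 33 (6.06%: Ube2c and Mcm2), against 32.2% of all targets. With the block, 12 of 33 (36.4%) fell, where 18.4% of all targets were called lower. They were Ccnb1, Ccnb2, Tpx2, Kif20a, Kif23, Prc1, Nusap1, Ttk, Cenpf, Cdc20, Ube2c and Mcm2. Ube2c had levels of -3.88, -3.35 and -3.18 in treated 26 h cultures, against -3.06, -2.55 and -2.53 in untreated 26 h cultures. It was the 1 member whose treated arrays all lay below its untreated arrays at 26 h (22.7% of all targets did so), and its difference was -0.76 (adjusted p = 0.0588 without and 0.00309 with the block). Birc5 and Mcm3 rose (0.36 and 0.34, adjusted p = 0.00647 and 0.0418 with the block, 0.33 and 0.55 without), where 13.3% of all targets were called higher. The median over the members was -0.18, against -0.05 over all targets. Its sign turned with 1 array, as it was 0.04 without treated 26 h replicate 1. It was -0.04 without untreated 26 h replicate 3, -0.41 without untreated 26 h replicate 1, and -0.29 and -0.37 without treated 26 h replicates 2 and 3.

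**Figure D4:**
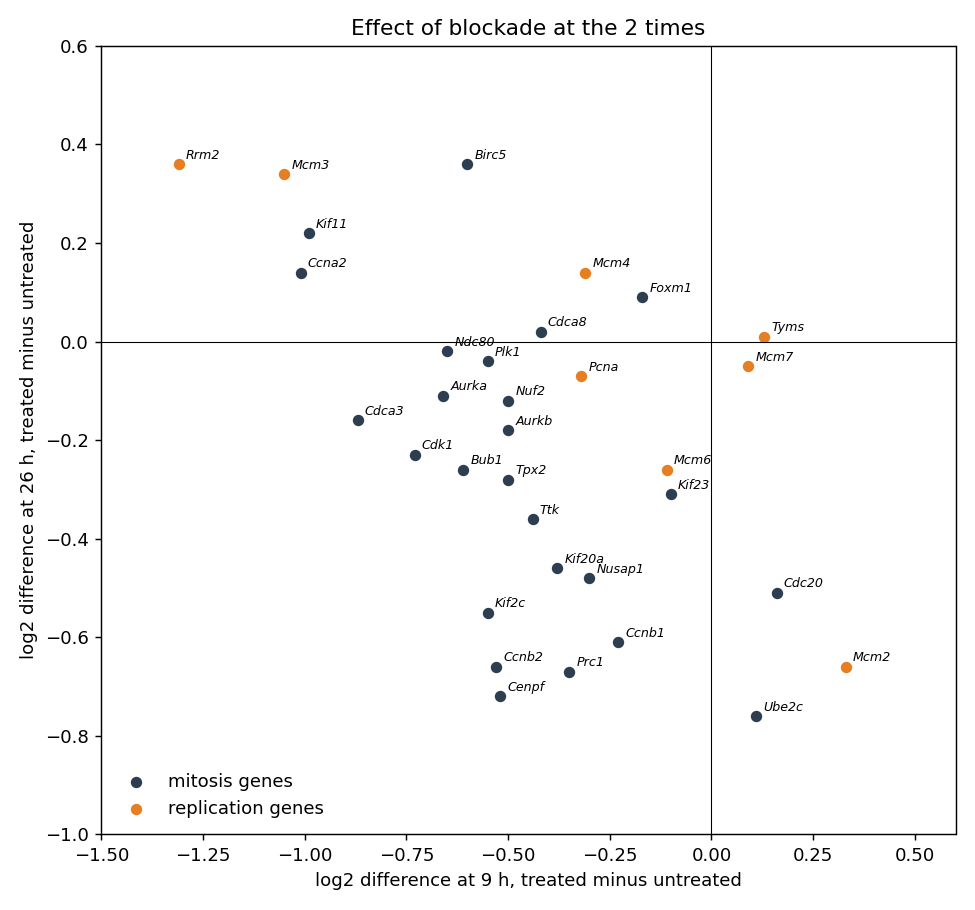
Log2 difference, treated minus untreated, at 9 h (horizontal) and at 26 h (vertical) for 33 genes, with mitosis genes dark and replication genes orange. Of the points, 28 lie left of 0 and 24 lie below 0, with Rrm2, Mcm3, Birc5, Kif11 and Ccna2 negative at 9 h and positive at 26 h, and Cdc20, Ube2c and Mcm2 the reverse. Of all 21250 targets, 10160 were negative at 9 h and 11845 at 26 h.

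The 2 times drew on separate untreated cultures, and different members led at each. In Kif11 the effect at 26 h minus that at 9 h was 1.21 ± 0.40 log2 (SE, adjusted p = 0.044 without and 0.00157 with the block), and it was the 1 member of 33 that passed without a block, where 12.7% of all targets were called higher. This call was lost in 9 of 12 fits that left out 1 array (adjusted p 0.0615 to 0.0961), and kept without treated 9 h replicate 2, untreated 9 h replicate 1 or treated 26 h replicate 1. It was also lost with normexp (0.72, adjusted p = 0.0744) and with slide as a random block (adjusted p = 0.089). With the block 11 members had a higher effect at 26 h than at 9 h, where 19.9% of all targets did, led by Rrm2 (1.67), Mcm3 (1.39) and Kif11. Another 3 had a lower one, Mcm2 (-0.99), Ube2c (-0.87) and Cdc20 (-0.67), where 24.9% of all targets did. These differences hold scan day as well as time, as stated above. Within a scan day, where treatment and time change together, treated 26 h arrays against untreated 9 h arrays (day 1) gave 12 members lower with the block, where 15.0% of all targets were lower. Treated 9 h arrays against untreated 26 h arrays (day 2) gave 16 members lower, where 6.10% of all targets were lower.

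Further probes bear on how far the split between times can be read for a gene. A further kept probe existed for 10 members, and 9 of these had the same sign of the average effect as the probe used. The average was smaller in size for Cenpf (-0.30, against -0.62 with the probe used) and Prc1 (-0.30, against -0.51). For Bub1 it was -0.14, against -0.44, with the further probe well above background on 6 of 12 arrays. The further probe of Ccna2 gave -0.40 (against -0.43), that of Kif2c -0.51 (against -0.55) and that of Foxm1 -0.13 (against -0.04). For Mcm3 the probes gave -1.05 (used) and -0.24 (other) at 9 h, and 0.34 and -0.45 at 26 h. For Rrm2 they gave -1.31 and -0.27 at 9 h, and 0.36 and -0.54 at 26 h. For Mcm2 they gave 0.33 and -0.29 at 9 h, and -0.66 and -0.33 at 26 h. In these 3 genes the averages of the 2 probes had the same sign (-0.36 and -0.35, -0.47 and -0.41, -0.17 and -0.31). The opposite signs at the 2 times were seen with the probe used and not with the other. For Mcm4 the probes went opposite ways at both times, at -0.31 and 0.87 at 9 h and at 0.14 and -0.87 at 26 h. Ccna2 gave 0.14 with the probe used and -0.28 with the other at 26 h, and Cenpf -0.72 and 0.03.

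Averaged over treatment, 0 of 33 members differed between 26 h and 9 h without a block (limma), where 12.7% of all targets were called in either direction. At an unadjusted p under 0.05 there were 4 of 33 (12.1%), against 26.6% of all targets. With the block 12 members were higher at 26 h, where 11.8% of all targets were, and 6 were lower, where 15.0% were. Higher at 26 h were Mcm3 (0.66, adjusted p = 7.48e-04), Rrm2 (0.56, adjusted p = 0.0044) and Kif11 (0.42, adjusted p = 0.0146), and also Foxm1, Nusap1, Ttk, Nuf2, Ndc80, Aurkb, Birc5, Mcm4 and Mcm6 by 0.16 to 0.39. Lower at 26 h were Ccnb1 (-0.40, adjusted p = 0.00877), Kif20a (-0.35, adjusted p = 0.0347) and Prc1 (-0.33, adjusted p = 0.0114), and also Aurka, Kif23 and Cdc20 by 0.18 to 0.25 in size. The higher genes held 5 of 8 kinetochore members and 3 of 5 MCM members, while of 7 spindle members 3 were lower and 2 higher.

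The replicate number moved nearly all of these genes. In an F test of replicate number beside the group means, 29 of 33 members passed (limma), where 29.9% of all targets did, and the 4 that did not were Bub1, Mcm4, Pcna and Tyms. Replicate 1 was the lowest of its group in all 4 groups for 28 of 33 members, where this held for 14.9% of all targets. Replicate 3 was the highest in all 4 groups for 8 members, where this held for 21.8% of all targets. As a median over members, arrays of replicate 1 lay -0.74 to -0.19 log2 from the mean of 12 arrays, those of replicate 2 lay -0.02 to 0.30, and those of replicate 3 lay -0.05 to 0.47. Aurkb had the biggest gap, with replicate 1 at -1.71 to -1.27 log2 against the mean of the other 2 replicates of its group, followed by Ccnb2 (-1.52 to -0.85) and Cenpf (-1.35 to -0.82). In Pcna the same gap was -0.26 to 0.12 and in Tyms -0.32 to 0.22, so that these replication genes lacked the common swing. The heat map of deviations shows it as a pale or blue first column in each group.

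**Figure D5:**
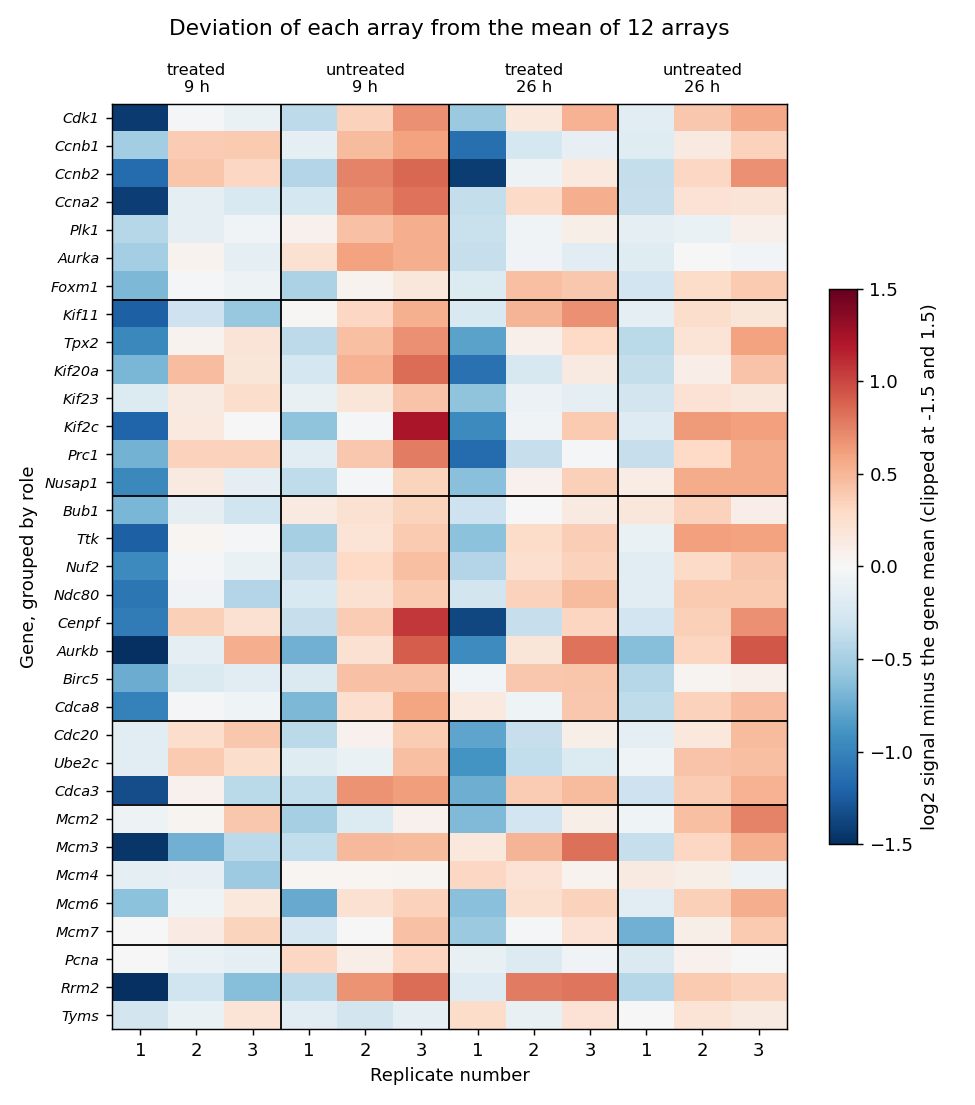
Log2 deviation of each of 12 arrays (columns, 3 replicates in each of 4 groups) from the mean of the gene, for 33 genes (rows, in blocks by role). Blue, lower values fill the first column of each group for most genes, and treated 9 h replicate 1 is the lowest array, with a median deviation of -0.74.

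The mitosis genes varied together from array to array. After the group means were removed, the mean pairwise correlation over 12 arrays was 0.91 among 25 mitosis members, 0.27 among 8 replication members and 0.09 among all targets tested. After the replicate numbers were removed as well, it was 0.46 among mitosis members, -0.05 among replication members and 0.08 among all targets. The members closest to the mean of the others by this second measure were Cenpf (0.94), Nusap1 (0.94), Cdk1 (0.92), Ndc80 (0.92) and Rrm2 (0.92), and the farthest were Mcm2 (-0.68) and Mcm7 (-0.51). These values are a description of 12 arrays that share slides and scan days.

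Markers of other cells moved with the replicate number too. The summed linear level of 9 markers of fibroblasts, meninges and vessels, relative to the 75th percentile of each array, was 1.13 to 2.39 in replicate 1, 4.58 to 7.05 in replicate 2 and 13.0 to 15.9 in replicate 3. Col1a1, Col1a2, Col3a1, Ptgds, Igf2 and Pdgfrb rose from replicate 1 to 3 in all 4 groups, and in replicate 3 the first 5 weigh most in this sum. In replicates 1 and 2 Ptgds was at -6.85 to -5.47 and added little, and Dcn, at -2.55 to -1.09, outweighed it. Dcn, Lum and Pecam1 did not rise so in every group. In untreated 26 h replicates 1, 2 and 3, Dcn was at -1.09, -1.71 and -1.88, and Pecam1 at -6.82, -6.28 and -7.09. The list's median gap of replicate 1 to the others was -2.27 log2, against -0.27 for neural progenitors, -0.27 for astrocytes, -0.41 for the oligodendrocyte lineage, -0.33 for microglia and -0.01 for neurons. Between treated and untreated cultures the fibroblast sum spanned 1.13 to 13.0 against 2.39 to 13.6 at 9 h, and 1.70 to 15.9 against 2.18 to 13.5 at 26 h. Its part in the levels of the mitosis genes was not tested.

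Lists of glia and progenitors were followed beside the treatment effect. The summed level of 9 neural progenitor markers was 28.3 to 39.3 in treated against 25.3 to 39.3 in untreated cultures at 9 h, and 26.8 to 39.8 against 33.6 to 55.2 at 26 h. Fabp7, the brightest of the 9 on every array, weighs most in this sum. At 26 h Dcx and Prom1 were each 0.65 log2 higher in treated cultures, and the other progenitor markers differed by -0.77 (Nes) to -0.09 (Sox2). The summed level of 8 markers of the oligodendrocyte lineage was 12.5 to 18.0 against 14.2 to 17.2 at 9 h, and 13.2 to 17.9 against 16.9 to 27.3 at 26 h. That of 8 astrocyte markers was 57.0 to 73.8 against 58.1 to 80.4 at 9 h, and 60.9 to 74.9 against 65.2 to 91.9 at 26 h. The medians of the average effect were -0.17 for progenitors, -0.29 for the oligodendrocyte lineage, -0.18 for astrocytes, 0.06 for microglia and 0.12 for neurons. With the block 4 of 8 markers of the oligodendrocyte lineage, 1 of 8 of astrocytes and 1 of 8 of neurons fell. Another 1 of 8 of neurons rose. Over all targets 6.99% were called lower and 6.18% higher. Of progenitor markers 0 of 9 and of microglia markers 0 of 8 were called by limma with the block, with 1 and 0 at an unadjusted p under 0.05. Cspg4 (NG2), a marker of oligodendrocyte precursors, fell on average by 0.52 log2 without a block (adjusted p = 0.0395), with -1.07 at 9 h and 0.04 at 26 h. The list was not uniform in time. Olig1 gave 0.46 at 9 h and -0.87 at 26 h, and Sox10 gave -0.04 and -0.98. Mbp gave -0.82 and 0.26, and Pdgfra gave -0.40 at both times. Slc17a7, the vesicular glutamate transporter of excitatory neurons, rose by 0.52 (adjusted p = 0.0147), with 0.94 at 9 h and 0.09 at 26 h. The markers with the biggest average difference in the other lists did not pass without a block (Slc1a3 -0.31, Itgam 0.52, Pecam1 0.49, Vim -0.32), and Itgam was well above background on 5 of 12 arrays. The part of these cells in the fall of mitosis genes was not tested.

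Other genes of the cell cycle were read from lists of the same kind. Of 41 further mitosis genes measured, 1 fell on average without a block, where 2.22% of all targets were called lower. With the block 14 of the 41 fell, where 6.99% of all targets were called lower, and the median over the 41 was -0.24. None of the 41 rose by limma, with 2 higher at an unadjusted p under 0.05 without a block and 3 with it. The 1 was Kif18a, a kinesin that dampens chromosome movements at metaphase. It had levels of -4.37, -4.36 and -4.45 in treated 9 h cultures, against -3.49, -3.49 and -3.61 in untreated 9 h cultures. At 26 h its levels were -4.40, -4.18 and -4.17 in treated cultures, against -2.96, -3.08 and -3.48 in untreated cultures. The groups did not overlap at either time, replicate 1 was the lowest of its group in 1 of 4 groups, and the average difference was -0.97 ± 0.09 log2 (SE, adjusted p = 3.44e-04).

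Of 28 further replication genes measured, 3 fell and 1 rose on average with the block (median -0.09). Over all targets, 6.99% were called lower and 6.18% higher with the block. Without it these shares were 2.22% and 2.23%. Without the block limma called 0 of the 28 genes, with 4 at an unadjusted p under 0.05. The 1 that rose was Gins3, a subunit of the complex that joins the MCM helicase at forks (0.51, adjusted p = 0.134 without and 0.0173 with the block). Of 19 genes of G1 and entry into S phase, 1 rose without a block, Mycn, a growth-promoting transcription factor (0.65, adjusted p = 0.0194), and with the block 1 fell and 4 rose (median -0.03). Of 7 inhibitors of cyclin-dependent kinases, 1 fell without a block and 2 with it (median -0.01).

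The inhibitor that fell without a block was Cdkn1c (p57), which holds cells in G1. It had levels of -2.77, -2.29 and -2.41 in treated 9 h cultures, against 0.22, 0.01 and 0.63 in untreated 9 h cultures. At 26 h its levels were -2.24, -2.24 and -1.68 in treated cultures, against -2.0, -0.09 and -0.30 in untreated cultures. The groups did not overlap at 9 h and overlapped at 26 h, where untreated replicate 1 was as low as the treated cultures. Its average difference was -2.02 ± 0.30 log2 (SE, adjusted p = 0.00467), with -2.77 at 9 h (adjusted p = 0.00227) and -1.26 at 26 h (adjusted p = 0.0728 without and 0.0263 with the block).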

How the data were processed

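Total RNA of 12 cultures in 4 groups was labelled with Cy3 and each was hybridised to its own 1-colour Agilent array, per the labels' protocols. Per the file headers, Feature Extraction 10.5.1.1 gave a processed signal, an intensity after background subtraction and detrending within the array. The authors also deposited a log2 matrix, found here to be the same signal minus 1 constant per array (the rule for the constant is not stated, and column medians run from 7.57 to 7.75). Arrays are few, and their number limits the precision.

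Each array's processed signals were taken to log2, and their 75th percentile was subtracted. Control spots and 3751 spot values with outlier flags were left out. Probes that stood well above background in every replicate of 1 or more groups were kept (24034 of 30367). The output holds no gene names, so 17996 probes were named through RefSeq transcript accessions, and 12371 stayed unnamed. The arrays' genome build is older than the table's (GRCr8), so array coordinates were not used. Between 77.6% and 86.8% of 42877 spots lay well above background.

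All 12 arrays entered 1 model with a mean per group in limma 3.58.1 (lmFit, eBayes) under R 4.3.3. The average effect without a block and the F test of replicate number were run on simulated data. The simulated arrays were independent, without the shared replicates and slides of the real ones, and the fits with a block were not simulated. Tests were two-sided, with Benjamini-Hochberg adjustment over all targets of a contrast and a threshold of 0.05. The labels speak of 3 independent cultures and do not say that a number is shared between groups. After removal of group means, same-numbered treated and untreated arrays of a time correlated across targets at 0.177 to 0.657, all above 0.1, so the number was also fitted as a block. This block was 1 term over all 4 groups. Over all same-numbered arrays the lowest correlation was -0.0413, between untreated arrays of the 2 times. A block within each time was therefore given as an alternative.

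The members, lists and tests were chosen with earlier results of these data known. Members named are those called in any contrast with or without the block, the extremes of each role class, and those not matched. Genes outside the members are named if called on average or if largest in their list. Some further markers are named where those of a list went different ways or weigh most in a sum. The alternatives were other scalings (median, quantile, normexp with offset 50, the deposited matrix), the mean over probes, all probes with no filter, slide as a block, values within a scan day, and replicates left out.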

Additional observations from a re-analysis of the deposited data

Results flagged for a closer look

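Kif11, the spindle motor, had effects of treatment that differed between the times: the effect at 26 h minus that at 9 h was 1.21 log2 (limma, adjusted p = 0.044 without a block). The call was lost in 9 of 12 fits that left out 1 array, and it was kept with the replicate number as a block (adjusted p = 0.00157). Treated minus untreated was -0.99 at 9 h, with 3 of 3 same-numbered pairs lower, and 0.22 at 26 h, with pair differences of -0.08, 0.25 and 0.50. The 2 times carry opposite scan days, so that time and day cannot be told apart in this difference.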

How the results depend on the processing

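Counts of members called, of 33, turned on whether the replicate number or the slide was fitted. On average over both times, 0 members were called, against 22 with the replicate block, 16 with the block within each time, 20 with slide as a fixed block (19 of the 22 among them), 3 with slide as a random block and 1 within scan day 1. At 9 h, 4 were called, against 21 with the block and 17 with the block within time, 7 with median centring, 0 without replicate 3 of every group and 8 without replicate 1 of every group. At 26 h, 0 were called, against 14 with the block, 10 within time, and 1 with median centring, quantile normalization, normexp, the deposited matrix, the mean over probes or slide as a random block. For the difference between times, 1 was called, against 14 with the block, 13 within time, 6 with median centring, quantile normalization or without replicate 1 of every group, 5 with the deposited matrix, 2 with normexp or the mean over probes, and 0 without replicate 3 of every group or with slide as a random block. For 26 h against 9 h, 0 were called, against 18 with the block, 15 with slide as a fixed block, 7 with slide as a random block, and 1 without replicate 1 of every group or within scan day 1.

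Settings combined with the block were chosen after seeing the data. With median centring, quantile normalization, normexp, the deposited matrix and the mean over probes, the block gave 17, 16, 20, 10 and 22 members on average, 20, 19, 17, 15 and 20 at 9 h, 10, 9, 16, 9 and 13 at 26 h, 15, 15, 13, 13 and 14 for the difference, and 15, 15, 14, 12 and 16 for 26 h against 9 h. With replicate number 1, 2 or 3 left out, where fewer arrays are fitted, it gave 8, 4 and 0 on average, 15, 15 and 7 at 9 h, 6, 4 and 1 at 26 h, 11, 11 and 8 for the difference, and 8, 5 and 1 for 26 h against 9 h.

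Leaving out 1 array at a time without the block gave 0 to 0 members on average, 1 to 8 at 9 h, 0 to 2 at 26 h, 0 to 6 for the difference, 0 to 0 for 26 h against 9 h and 28 to 29 for the replicate number. The difference lost Kif11 in 9 of 12 such fits (1.21 in all arrays, 0.95 to 1.30 where lost). The count came to 6 without untreated 9 h replicate 1, and to 2 without untreated 9 h replicate 3, treated 9 h replicate 2 or treated 26 h replicate 1. At 9 h untreated replicate 1 gave 8 when left out, and 26 h gave 2 without untreated 26 h replicate 1. The median over members ran from -0.45 to -0.22 on average, from -0.70 to -0.10 at 9 h and from -0.41 to 0.04 at 26 h. As the mean over its probes, Mcm4 turned to 0.28 at 9 h with the block, and to -0.65 for the difference with and without the block. Normexp moved the median of all targets to -0.14 at 26 h, against -0.05 with the scaling used and -0.02 to 0.00 with the other scalings. The causes were not tested, and signal over background limits the dimmer probes.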
